A study of Homo sapiens with 16 samples.

Results

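ZNF genes are genes whose approved symbol starts with ZNF and a digit, a name given mainly to genes for C2H2 zinc finger proteins. They were chosen by name alone, with earlier results of these data known. The deposited table leaves out genes that varied little over its arrays. Every gene in it whose probe set carried a single symbol of that form was taken, with no further choice by value. This gave 157 probe sets for 140 genes, of 5250 genes measured in all. Where a gene had several probe sets, which held for 14 of the 140, the one with the highest mean log2 value over all arrays stood for it. By the RefSeq annotation 127 were protein coding, 7 were transcribed pseudogenes and 6 were long non-coding RNAs such as antisense and divergent transcripts. Another 14 probe sets named a ZNF gene beside a second gene and were left out.

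Messenger RNA was measured on 16 Affymetrix arrays in AsPC-1, an established human pancreatic adenocarcinoma cell line grown from ascites. In the drug experiment, exposure to 10 µM ICG-001 or to DMSO, its vehicle, lasted 6 h or 24 h, and each of these 4 groups held 3 arrays. ICG-001 is a small molecule described as binding the coactivator CREBBP and blocking its contact with β-catenin. In a separate experiment cells were transfected with 20 nM control siRNA or siRNA against CTNNB1, the gene of β-catenin, and RNA was taken at 48 h, with 2 arrays in each of the 2 groups. All 6 groups were unselected cultures of a single line, and those of the second experiment all carried siRNA and transfection reagent, controls included. The labels name the arrays of a group biological replicates without saying how the cultures were separated, so the p-values measure the spread between these arrays. The level of CTNNB1 itself, and with it the depth of knockdown, was not analysed here.

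C2H2 zinc finger proteins form the largest class of human transcription factors, and each finger reads a few bases of DNA. Many carry a KRAB domain, which recruits TRIM28 (also called KAP1), the histone methyltransferase SETDB1 and heterochromatin protein 1 to silence transposable elements and nearby genes. KRAB zinc finger genes lie in large clusters on chromosome 19. Others carry a SCAN domain, which pairs such proteins with each other, or have no additional domain. Of the 140 genes, 74 lay on chromosome 19, 9 on chromosome 7, 8 on chromosome 16 and 6 on chromosome 17, with the rest spread over other chromosomes.

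Promoter sequence is shown for the 4 genes on which the drug results turned most and for which the RefSeq table of promoters (GRCh38.p14) held an entry, so that the letters can be read beside the values. ZNF277 and ZNF862 rose with ICG-001, and ZNF800 and ZNF638 fell. Each line gives the 250 bases upstream of the annotated start, 5′ to 3′ on the strand of the gene. ZNF277 lies at chr7:112206445-112206694 on the plus strand, ZNF862 at chr7:149838125-149838374 on the plus strand, ZNF638 at chr2:71331532-71331781 on the plus strand and ZNF800 at chr7:127392709-127392958 on the minus strand. Capitals mark an exact match to a motif searched for, on either strand: the ZNF143 motif in ZNF277 (there on the opposite strand) and the NRF1 palindrome in ZNF800.
ZNF277: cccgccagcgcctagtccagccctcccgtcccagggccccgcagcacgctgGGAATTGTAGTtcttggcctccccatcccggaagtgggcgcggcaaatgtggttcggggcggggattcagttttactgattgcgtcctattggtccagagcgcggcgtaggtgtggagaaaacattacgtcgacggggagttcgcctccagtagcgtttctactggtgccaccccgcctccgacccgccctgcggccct
ZNF862: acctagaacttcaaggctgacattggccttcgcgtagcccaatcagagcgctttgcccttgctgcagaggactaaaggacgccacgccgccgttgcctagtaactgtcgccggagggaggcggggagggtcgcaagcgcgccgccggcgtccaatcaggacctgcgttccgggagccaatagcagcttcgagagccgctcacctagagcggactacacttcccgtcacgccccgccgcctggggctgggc
ZNF638: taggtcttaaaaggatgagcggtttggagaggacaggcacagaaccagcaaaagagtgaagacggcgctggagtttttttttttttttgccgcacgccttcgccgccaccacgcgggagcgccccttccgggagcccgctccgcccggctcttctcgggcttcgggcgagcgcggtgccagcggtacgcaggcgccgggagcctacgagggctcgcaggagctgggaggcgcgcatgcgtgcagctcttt
ZNF800: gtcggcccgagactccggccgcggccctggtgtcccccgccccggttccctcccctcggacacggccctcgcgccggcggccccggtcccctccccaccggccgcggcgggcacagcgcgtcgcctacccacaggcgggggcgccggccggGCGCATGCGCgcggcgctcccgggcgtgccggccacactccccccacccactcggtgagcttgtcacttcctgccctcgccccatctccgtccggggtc
The 4 stretches were rich in G and C, at 64.4% in ZNF277, 65.2% in ZNF862, 64.4% in ZNF638 and 80.4% in ZNF800. They held 23, 25, 28 and 37 CpG dinucleotides in the same order. The search found 0 TATAAA in any of the 4.

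Over the 111 ZNF genes with a promoter in that table, the median GC content of the same 250 bases was 60.4% against 58.0% over all 27305 promoters, and the median number of CpG was 17 against 11. The core of the TCF/LEF site, CTTTGAT, through which β-catenin is known to act, was found in 3 of 111 (2.7%, against 2.28% of all promoters). These were ZNF117, ZNF41 and ZNF44. The ZNF143 motif was found in 3 (2.7% against 0.249%), namely ZNF180, ZNF277 and ZNF451. The NRF1 motif was also found in 3 (2.7% against 1.13%), ZNF540, ZNF652 and ZNF800. The YY1 motif AAGATGGCG was found in 3 (2.7% against 0.641%), of which ZNF582 and its divergent transcript ZNF582-DT are neighbours. TATAAA stood in 3 of 111 promoters (2.7%) against 11.1% of all. The E2F motif TTTCCCGC was found in 3 (2.7% against 1.42%). The cyclic AMP response element TGACGTCA (0.901% against 1.77%), the ATF4 element TGATGCAA (0.901% against 0.82%) and the ZBTB33 palindrome (0.901% against 0.41%) stood in 1 each. A match says only that these letters are there.

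Signals of the ZNF genes were mostly low. The mean deposited intensity over the 16 arrays ran from 2.80 to 1014 with a median of 22.9, against a median of 29.8 over all genes. It lay under 16 in 59 of the 140 genes, of which 34 were under 16 in every one of the 6 groups, and over 100 in 20. When all genes were split at the median of their mean log2 value, 60 ZNF genes fell in the brighter part and 80 in the dimmer. Zinc finger genes resemble each other in sequence, and 18 of the 140 were represented by a probe set with the suffix _x_at, which Affymetrix gives to sets whose probes can match other transcripts.

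The arrays of the siRNA experiment stood apart from those of the drug experiment for all genes, and this touched the ZNF genes too. Median intensity per array was 20.6 to 28.6 in the drug experiment and 12.7 to 13.05 in the siRNA experiment. Of 10 epithelial markers fixed for AsPC-1, 5 were measured: KRT7, KRT19, CDH1, MUC1 and S100P. Their summed intensity was 3552 to 4422 on the DMSO arrays, 7304 to 9379 on the ICG-001 arrays and 1427 to 1713 on the siRNA arrays. On the drug and the siRNA arrays in that order, keratin 19 read 73.4 to 109.6 and 7.23 to 15.8, keratin 7 708 to 1590.4 and 80.3 to 255, E-cadherin (CDH1) 273 to 371 and 8.68 to 16.6, and MUC1 939 to 1424 and 242 to 348. S100P did not follow them: its siRNA arrays, at 901 to 1268, lay inside its drug range of 686 to 6909, and it made up much of the sum on the ICG-001 arrays. Summed fibroblast markers (3 of 6 measured) lay at 98.6 to 166 and 81.0 to 120.4, the endothelial ones (2 of 4) at 5.41 to 30.7 and 9.39 to 14.6, and the 1 leukocyte marker measured of 5, PTPRC, at 6.04 to 31.7 and 4.07 to 5.87. Within the fibroblast sum, COL1A1 was lower on the drug arrays (21.3 to 55.5 and 68.5 to 101.6) and DCN higher (58.8 to 98.1 and 8.61 to 32.0). COL3A1 overlapped, at 3.34 to 18.2 and 1.72 to 4.75. Of 6 acinar and 4 islet markers, 0 were measured. The part of these differences in the results was not tested.

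Between the experiments, levels of many ZNF genes lay far apart, at about the same share as among all genes. After quantile normalization, 37 ZNF genes were higher on all 12 drug arrays than on all 4 siRNA arrays and 23 were lower. Together these were 42.9% of 140, against 43.3% of all 5250 genes. With the deposited scaling the numbers were 49 and 19 (48.6% against 51.0%). The median difference, drug minus siRNA, was 0.10 on the log2 scale, against 0.07 over all genes. Experiment, time in culture and transfection cannot be told apart here, so these levels are a description with no test. The table holds only genes with a coefficient of variation of 0.40 or more, after rounding, over the 16 arrays. A gap between the experiments can by itself bring a gene into it, so the shares above depend in part on that selection.

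ZNF652, a transcriptional repressor, showed the widest gap in one direction. Its intensity was 24.9 to 42.5 on the 12 drug arrays (median 32.2) and 247 to 334 on the 4 siRNA arrays. ZNF319 read 8.09 to 22.4 (median 16.8) on the drug arrays and 113 to 139 on the siRNA arrays, and ZNF770 34.1 to 56.4 (median 40.2) and 193 to 218. In ZNF160, a KRAB gene of chromosome 19, the drug arrays read 385 to 606 (median 519) and the siRNA arrays 1998 to 2151. In the other direction the pseudogene ZNF252P read 655 to 1177 (median 947) on the drug arrays and 64.8 to 82.9 on the siRNA arrays. ZNF688 read 153 to 209.8 (median 165) against 7.61 to 12.1, and ZNF528 105 to 169 (median 137) against 4.30 to 7.84. ZNF423, a cofactor of SMAD and EBF proteins, read 76.0 to 112 (median 94.6) against 5.17 to 5.74. In these 8 genes, named after their values were seen, no array of one experiment reached the range of the other. ZNF160, ZNF770, ZNF252P and ZNF528 were read by probe sets with the _x_at suffix. ZNF160 had 3 probe sets, of which the brightest is given. The table holds genes with a coefficient of variation of 0.40 or more, after rounding, over the 16 arrays. Of the 140 ZNF genes, 58 reached 0.40 over the 12 drug arrays, 66 over the 4 siRNA arrays and 47 in neither. The same counts were not made over all genes. All 8 genes named above were among these 47. They were in the table only through the gap between the experiments, so their separation followed from that selection.

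**Figure D1:**
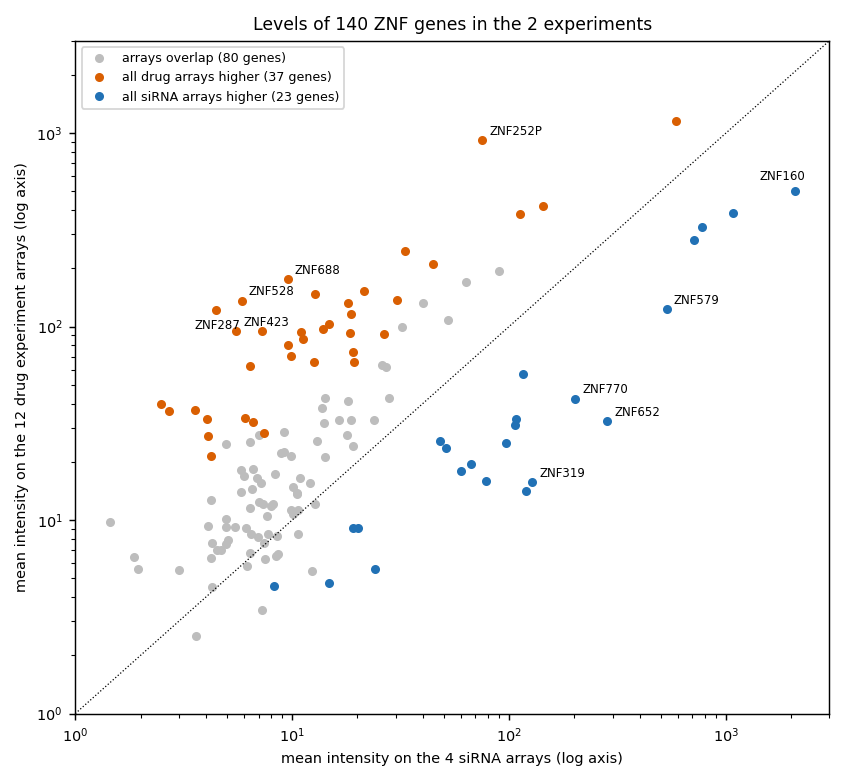
Mean deposited intensity of each of the 140 ZNF genes on the 12 arrays of the drug experiment (vertical, log axis) against the mean on the 4 arrays of the siRNA experiment (horizontal, log axis), with a dotted line of equality. Orange points (37 genes) are higher on every drug array, blue points (23 genes) on every siRNA array, and grey points (80 genes) overlap, by the quantile normalized values.

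Changes were tested with limma in one fit over all 6 groups on log2(intensity + 16) after quantile normalization. A gene passed the test at a Benjamini-Hochberg adjusted p under 0.05 over the 5250 genes. Adding 16 damps differences near background, so the log2 changes printed for dim genes understate the ratio of their intensities. The vehicle DMSO was the control at each time, and the control siRNA in the other experiment.

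After 6 h of ICG-001, few ZNF genes had changed. ZNF114, ZNF449 and ZNF277 rose, and ZNF800 and ZNF638 fell. These 5 genes were 3.57% of the 140, while 13.8% of all genes passed the test (5.56% rose and 8.23% fell). The median change was -0.02 on the log2 scale in the ZNF genes and -0.02 over all genes. The median size of the change, whatever its direction, was 0.149 against 0.153. With the deposited scaling the ZNF median was 0.01 and thus of the other sign, 3 ZNF genes rose and 1 fell, and over all genes 406 rose and 244 fell. In these bulk cultures, less RNA per cell and fewer cells that express a gene cannot be told apart.

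After 24 h, 14 ZNF genes had changed, 5 up and 9 down. ZNF114, ZNF862, ZNF277, ZNF117 and ZNF449 rose. ZNF638, ZNF800, ZNF639, ZNF528, ZNF830, ZNF551, ZNF292, ZNF99 and ZNF503-AS2 fell. These were 10.0% of the 140, against 20.5% of all genes (9.22% rose and 11.3% fell). The median change was 0.03 against -0.02 over all genes, and the median size 0.183 against 0.208. The split by direction depended on the scaling: with the deposited scaling 9 ZNF genes rose and 4 fell (69.2% of calls were rises, against 35.7% here), and over all genes 740 rose and 385 fell. That scaling moved the median at 24 h to 0.13 in the ZNF genes and to 0.09 over all genes, and it added ZNF207, ZNF469, ZNF540 and ZNF767P to the rises. Without array 1 of ICG-001 at 24 h, 9 genes passed the test, all of them among the 14.

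All 5 genes that passed at 6 h passed in the same direction at 24 h, where the controls were other arrays. Of all genes that passed at 6 h, 80.4% (582 of 724) did so. Counted over all genes tested, 3.57% of ZNF genes and 11.1% of all genes passed in the same direction at both times. Another 9 ZNF genes passed at 24 h alone.

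**Figure D2:**
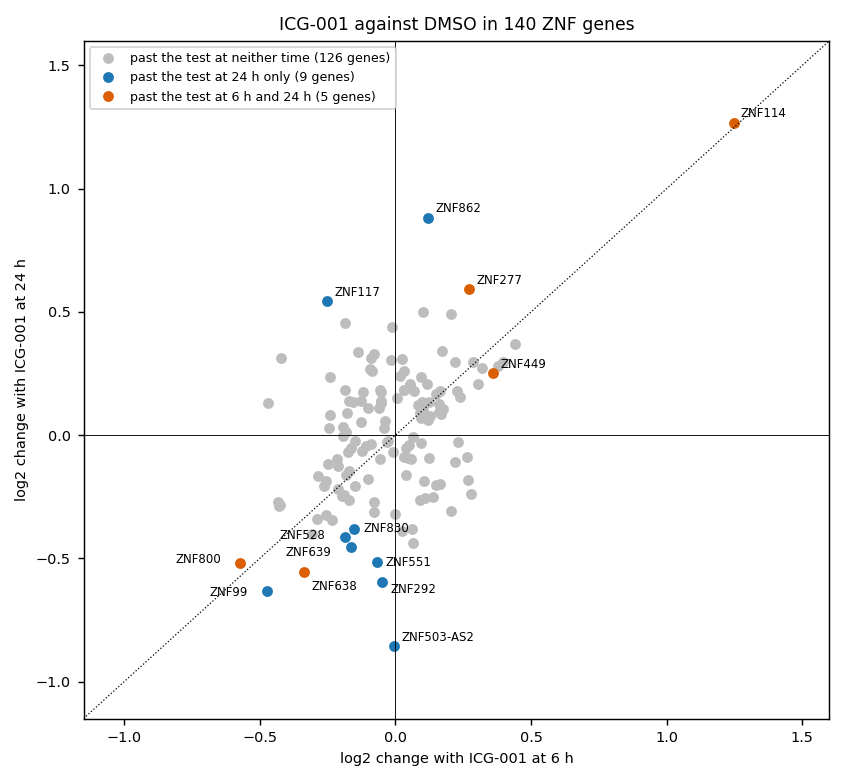
Log2 change with ICG-001 against DMSO at 6 h (horizontal) and at 24 h (vertical) for the 140 ZNF genes, with a dotted line of equal change. Orange points passed the test at both times (5 genes), blue points at 24 h only (9 genes) and grey points at neither (126 genes), and ZNF114 lies farthest from 0 at 1.25 and 1.27.

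ZNF114, a zinc finger gene of chromosome 19, rose the most of the 140 at both times. Its intensity on the 6 h arrays was 25.6, 33.7 and 33.6 in DMSO and 120.3, 96.2 and 97.3 in ICG-001. At 24 h it was 22.7, 17.6 and 26.6 in DMSO and 88.2, 84.2 and 96.4 in ICG-001. Every treated array lay above every vehicle array, and the levels did not overlap at either time. The log2 change was 1.25 ± 0.15 (SE, adjusted p = 2.6e-06) at 6 h and 1.27 ± 0.15 (adjusted p = 1.39e-06) at 24 h. The probe set used has the _x_at suffix, and the second probe set of ZNF114, which does not, gave 1.27 at 6 h and 1.20 at 24 h and also passed the test. The call held at both times in each of the 17 alternative settings tried. With 64 in place of 16 added before log2 the change was 0.73 at 6 h and 0.69 at 24 h, and with 1 added 1.63 and 1.78. After CTNNB1 siRNA the arrays read 29.8 and 26.4 against 27.7 and 24.7 in the control siRNA (0.05, adjusted p = 0.909).

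ZNF277, a C2H2 protein reported to bind the Polycomb protein BMI1, rose at 6 h and again by 24 h. The DMSO arrays read 788, 785 and 776 at 6 h and 881, 879 and 857 at 24 h. The ICG-001 arrays read 1218, 1183 and 1202 at 6 h and 1754, 1796 and 1761 at 24 h. The spread within a group was small beside the gap between groups. The log2 change was 0.27 ± 0.05 (adjusted p = 0.000601) at 6 h and 0.59 ± 0.05 (adjusted p = 2.54e-08) at 24 h. Its size depended on the scaling: with the deposited scaling it was 0.61 and 1.01. The change at 24 h exceeded that at 6 h by 0.32 ± 0.07 (adjusted p = 0.0066), a difference that did not pass with arrays centred on their medians (0.29, adjusted p = 0.0757) or without the intensity trend (adjusted p = 0.138). The siRNA arrays read 612 and 633 after CTNNB1 siRNA and 558 and 547 in the control (0.11, adjusted p = 0.3).

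ZNF449, a SCAN domain gene of the X chromosome, rose by 0.36 ± 0.08 (adjusted p = 0.00218) at 6 h and by 0.25 ± 0.08 (adjusted p = 0.0238) at 24 h. Its arrays read 308, 322 and 332 in DMSO and 481, 463 and 423 in ICG-001 at 6 h. At 24 h they read 303, 332 and 315 in DMSO and 461, 417 and 433 in ICG-001. The groups did not overlap at either time. The call at 24 h was lost without array 1 or 3 of ICG-001 (adjusted p = 0.126 and 0.064), without array 1 of DMSO (adjusted p = 0.101) and without the intensity trend (adjusted p = 0.0698).

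ZNF862 and ZNF117, both on chromosome 7, rose at 24 h, and the test of the difference between the times passed for both. ZNF862 read 164, 183 and 146 in DMSO and 344, 302 and 371 in ICG-001 at 24 h, and 148, 108 and 126 against 147, 156 and 129 at 6 h. The groups were apart at 24 h and overlapped at 6 h. Its log2 change was 0.88 ± 0.12 (adjusted p = 8.25e-06) at 24 h and 0.12 (adjusted p = 0.75) at 6 h, a difference of 0.76 ± 0.17 (adjusted p = 0.00512). ZNF117 read 88.7, 121.8 and 89.7 in DMSO and 170.4, 138.5 and 173 in ICG-001 at 24 h. At 6 h it read 103, 93.0 and 80.9 in DMSO and 80.0, 75.0 and 79.0 in ICG-001. Its log2 change was 0.54 ± 0.14 (adjusted p = 0.00643) at 24 h and -0.25 ± 0.14 (adjusted p = 0.361) at 6 h, a difference of 0.80 ± 0.19 (adjusted p = 0.0122). The probe set used for ZNF117 also has the _x_at suffix, and its second probe set gave 0.39 at 24 h and did not pass (adjusted p = 0.153). For the difference between the times, 0 of the 14 genes with several probe sets passed with all of them. The second probe set of ZNF117 thus did not pass there either. These 3 genes, ZNF277 among them, were the ones of the 140 (2.14%) whose drug effect passed the test of a difference between the times, against 7.81% of all genes (3.89% upward and 3.92% downward). Without array 1 of DMSO at 24 h, 5 passed it.

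Among the falls, ZNF800, a C2H2 repressor known for restraining the enteroendocrine lineage, was lower at both times. The arrays read 408, 382 and 319 in DMSO and 294, 259 and 256 in ICG-001 at 6 h. At 24 h they read 279.7, 269.6 and 251 in DMSO and 205, 237 and 183 in ICG-001. The level also differed between the times in vehicle. ZNF800 fell by 0.57 (SE 0.10, adjusted p = 0.000281) at 6 h and by 0.52 (SE 0.10, adjusted p = 0.000535) at 24 h, and kept its call in all 17 settings at each time.

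ZNF638, which acts with the HUSH complex to silence unintegrated viral DNA, fell by 0.56 (SE 0.11, adjusted p = 0.000543) at 24 h. Its arrays read 350.0, 351 and 278 in DMSO and 263, 248 and 239 in ICG-001 at 24 h, without overlap. At 6 h they read 453, 403 and 324 in DMSO and 343, 343 and 332 in ICG-001, and overlapped as deposited though not after normalization. The fall of 0.34 on the log2 scale at 6 h (SE 0.11, adjusted p = 0.0439) was lost in 11 of 17 settings. Among these were the deposited scaling (-0.19, adjusted p = 0.334), array 1 of DMSO left out (-0.23, adjusted p = 0.274), and arrays 2 of DMSO and 1, 2 and 3 of ICG-001 left out (adjusted p = 0.171, 0.102, 0.113 and 0.114).

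The other falls at 24 h were smaller or sat near background. ZNF639 read 261, 260.4 and 220.1 in DMSO and 206, 180.1 and 216 in ICG-001, and fell by 0.45 (SE 0.12, adjusted p = 0.00899). ZNF528, read by a probe set with the _x_at suffix, was at 141, 137 and 146 in DMSO and 105, 116 and 121 in ICG-001. It fell by 0.41 (SE 0.13, adjusted p = 0.0236). ZNF830, a splicing-related protein, read 407, 402 and 405 in DMSO and 401, 373 and 341 in ICG-001, and fell by 0.38 (SE 0.11, adjusted p = 0.016). None of these 3 passed with the deposited scaling, where the changes were -0.28 (adjusted p = 0.0895), -0.28 (adjusted p = 0.109) and -0.12 (adjusted p = 0.444). The call of ZNF639 was also lost without array 2 of ICG-001, that of ZNF830 without array 3 of ICG-001, and that of ZNF528 without arrays 1 or 2 of ICG-001 or 1 or 3 of DMSO.

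ZNF551 read 22.1, 16.4 and 19 in DMSO and 8.73, 9.67 and 8.90 in ICG-001, and fell by 0.52 (SE 0.15, adjusted p = 0.02). ZNF292 read 20.0, 22.8 and 16.5 in DMSO and 7.27, 8.98 and 7.88 in ICG-001, and fell by 0.60 (SE 0.20, adjusted p = 0.0397). The groups were apart in both, but the calls lay near the threshold. That of ZNF292 was lost with any 1 of the 6 arrays left out, and that of ZNF551 without arrays 2 or 3 of ICG-001 or 1 or 3 of DMSO. The changes themselves moved little with 1 array left out, from -0.65 to -0.54 in ZNF292 and from -0.57 to -0.46 in ZNF551. The last calls at 24 h were ZNF99 and the antisense RNA ZNF503-AS2, whose arrays overlapped; they fell outside the rule for naming genes and are named after their values were seen. ZNF503-AS2 read 5.15, 17.9 and 57.2 in DMSO and 1.00, 13.6 and 1.53 in ICG-001 (adjusted p = 0.0457), and without the array at 57.2 its adjusted p was 0.307. ZNF99 read 19.9, 6.37 and 32.5 in DMSO and 2.56, 1.44 and 15.8 in ICG-001 (adjusted p = 0.0493), and passed in 5 of 16 settings.

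**Figure D3:**
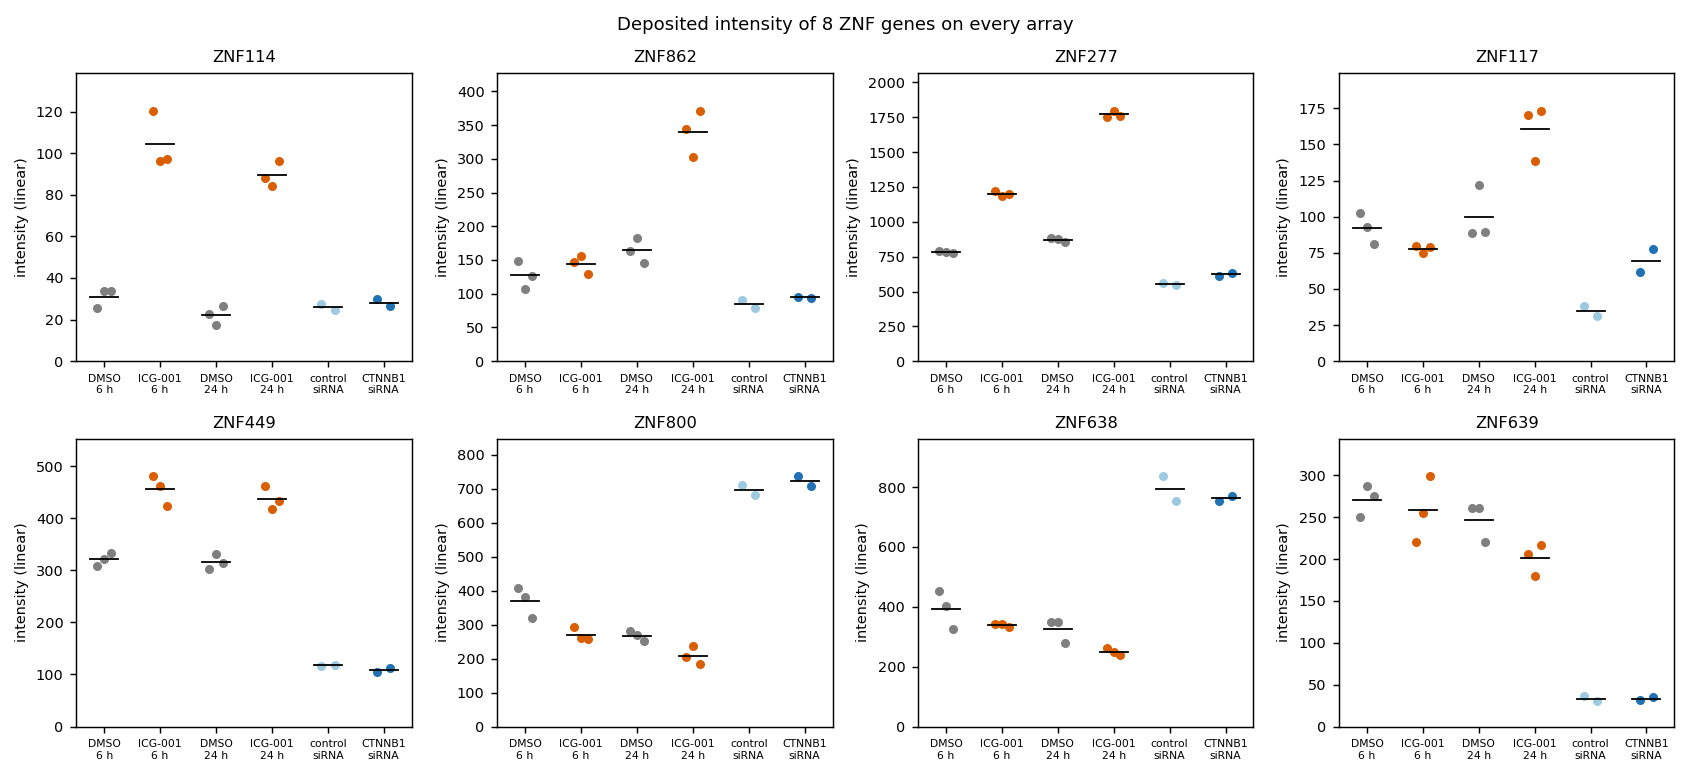
Deposited intensity (linear axis from 0) of 8 ZNF genes on all 16 arrays; points are arrays (3 per drug group, 2 per siRNA group) and bars are group means. ZNF114 is higher in ICG-001 at both times, ZNF862 and ZNF117 at 24 h, and ZNF277 rises from 1183 to 1218 at 6 h to 1754 to 1796 at 24 h in ICG-001.

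In vehicle alone, 3 ZNF genes differed between 24 h and 6 h (2.14%, against 8.63% of all genes, where 4.69% rose and 3.94% fell). This comparison shares its DMSO arrays with both drug comparisons. The pseudogene ZNF767P rose by 0.48 ± 0.09 (adjusted p = 0.00186), from 132, 123 and 135 at 6 h to 178, 199 and 181 at 24 h. ZNF582, a KRAB gene known to be methylated in several carcinomas, fell by 0.49 (SE 0.11, adjusted p = 0.00529), from 258, 221 and 219 to 160.0, 186 and 171. ZNF800 fell by 0.54 (SE 0.10, adjusted p = 0.0011). In all 3 the times did not overlap, as the rule for naming genes required. Without array 1 of DMSO at 6 h, and likewise without array 1 at 24 h, 5 ZNF genes passed.

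In ICG-001, 11 ZNF genes differed between 24 h and 6 h, 7 up and 4 down (7.86%, against 17.4% of all genes, where 8.5% rose and 8.88% fell). This comparison shares its arrays with the drug comparisons, and with the deposited scaling it gave 13 rises and 3 falls (81.2% of calls were rises, against 63.6% here). Over all genes the same change of scaling took the share of rises from 48.9% to 61.8%. ZNF862 rose by 1.10 ± 0.12, ZNF117 by 0.85 ± 0.14 and ZNF767P by 0.72 ± 0.09. ZNF767P, at 139, 135 and 119 at 6 h, read 234, 232 and 236 at 24 h, and so rose with time in drug as in vehicle. ZNF469, the gene of brittle cornea syndrome, rose by 0.64 ± 0.18 (adjusted p = 0.0158), from 23.4, 18.8 and 12.6 to 54.4, 34.8 and 49.8. Its call was lost without array 3 at 6 h, or array 1 or 3 at 24 h. ZNF157 rose by 0.58 ± 0.19 (adjusted p = 0.0349) from 1.67, 5.41 and 1.89 to 10.7, 26.4 and 11.4, all near background, and lost its call without array 1 or 3 at 6 h or array 2 at 24 h. The falls were ZNF638, ZNF800, ZNF639 and ZNF582, of 0.54, 0.48, 0.46 and 0.40 on the log2 scale. The last 2 lost their calls with some single arrays left out: array 3 at 6 h or 2 at 24 h for both, and array 1 at 6 h for ZNF582. The other 2 rises stood below the 5 largest and are named after their values were seen. They were ZNF277 and ZNF207, a kinetochore protein that binds BUB3, which read 357, 388 and 308 at 6 h and 579.9, 539 and 525 at 24 h (0.50 ± 0.12, adjusted p = 0.00572).

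After CTNNB1 siRNA, 9 ZNF genes passed the test, 6 up and 3 down. They were 6.43% of the 140, against 12% of all genes (6.19% rose and 5.83% fell). The median change was -0.02 against 0.01 over all genes. Most of these genes read near background on these arrays. The count depended on the scaling: with the deposited scaling 4 ZNF genes rose and 0 fell, while over all genes 264 rose and 213 fell, and with each array centred on its median 3 ZNF genes rose and 0 fell. In the deposited scaling 4 ZNF genes passed and all 4 were among the 9. Without array 2 of CTNNB1 siRNA 5 passed, of which 2 were among the 9. With 2 arrays a group, the fit borrows its spread from the other groups. On the 4 siRNA arrays alone 1 ZNF gene passed, ZNF579.

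ZNF614, a zinc finger gene of chromosome 19, rose the most. It read 2.82 and 4.33 in the control siRNA and 18.9 and 22.1 after CTNNB1 siRNA (1.31 ± 0.22, adjusted p = 0.00037), and passed in 14 of 15 settings, with an adjusted p of 0.076 on the 4 siRNA arrays alone. ZNF579 was far above the added 16 on every array. It passed in 7 of 15 settings, among them the deposited scaling, arrays centred on their medians and the siRNA arrays alone. It read 437 and 443 in the control and 631 and 619 after CTNNB1 siRNA (0.45 ± 0.14, adjusted p = 0.0494), and its call was lost with any 1 of the 4 siRNA arrays left out. ZNF117 read 38.4 and 31.4 in the control and 61.6 and 77.4 after CTNNB1 siRNA (0.64 ± 0.17, adjusted p = 0.0168). The second probe set of ZNF117 gave 0.95. Its call was lost without array 2 of either group (adjusted p = 0.109 and 0.127).

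ZNF570 read 4.89 and 8.98 in the control and 16.7 and 21.6 after CTNNB1 siRNA (0.93 ± 0.22, adjusted p = 0.00852). ZNF493 read 10.5 and 9.33 against 15.8 and 23.7 (0.68 ± 0.16, adjusted p = 0.00636), and ZNF425 1.00 and 7.41 against 9.96 and 16 (0.76 ± 0.24, adjusted p = 0.0497). Of these 3, ZNF493 passed with the deposited scaling (0.46, adjusted p = 0.048) and ZNF570 (0.62, adjusted p = 0.124) and ZNF425 (0.53, adjusted p = 0.227) did not. The 3 falls read at most 20.3 on every siRNA array, and none passed with the deposited scaling. ZNF618, a partner of the methylated DNA reader UHRF2, read 10.1 and 15.9 in the control and 1.21 and 3.54 after CTNNB1 siRNA (fell by 0.91, SE 0.22, adjusted p = 0.0105). ZNF738 read 20.3 and 18.0 against 9.05 and 7.89 (fell by 0.80, SE 0.21, adjusted p = 0.0171). The probe sets of ZNF738 and ZNF493 have the _x_at suffix. ZNF41, a KRAB gene of the X chromosome, read 15.6 and 17.9 against 8.73 and 8.04 (fell by 0.64, SE 0.18, adjusted p = 0.0216). Leaving out array 2 of CTNNB1 siRNA ended the calls of ZNF570, ZNF493, ZNF425, ZNF738 and ZNF41. Leaving out array 1 of the control ended those of ZNF570, ZNF425 and ZNF738, leaving out array 2 of the control those of ZNF618 and ZNF41, and leaving out array 1 of CTNNB1 siRNA that of ZNF618.

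**Figure D4:**
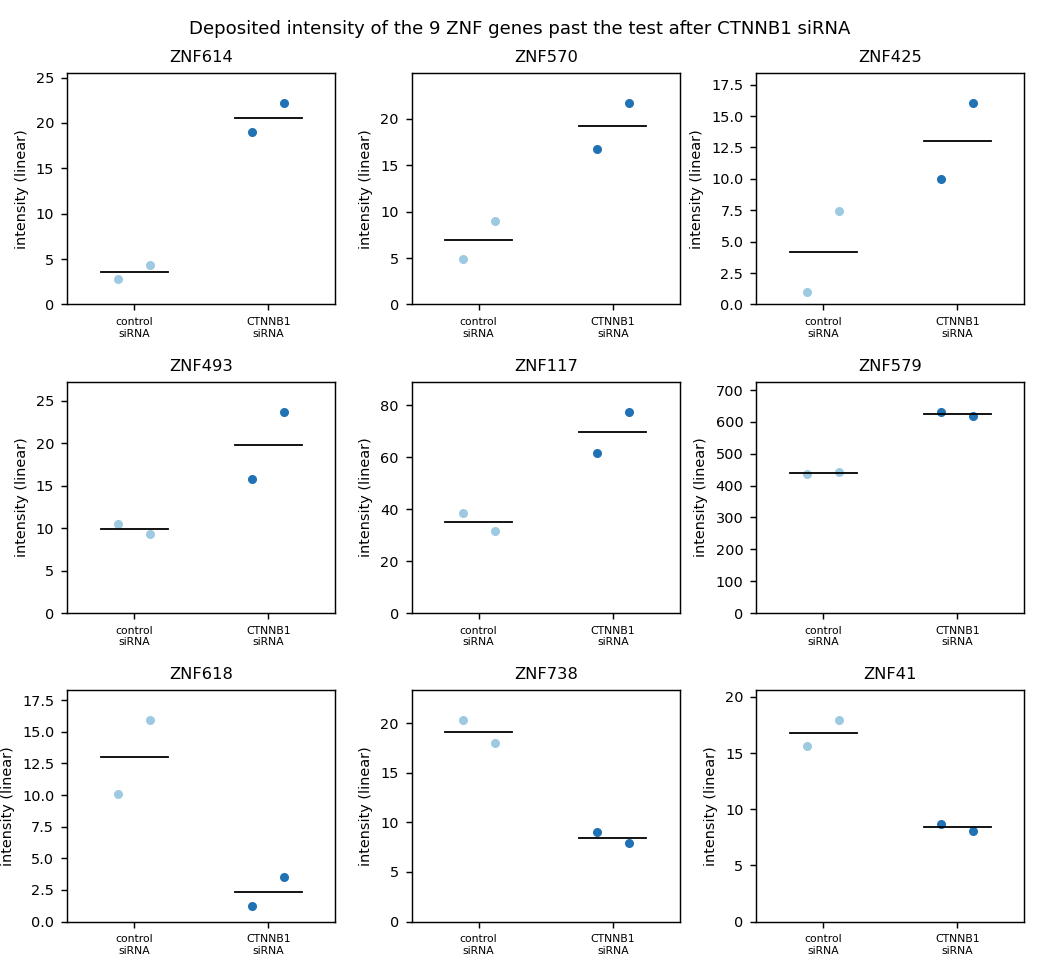
Deposited intensity (linear axis from 0, own scale in each panel) of the 9 ZNF genes that passed the test after CTNNB1 siRNA; points are the 2 arrays of each group and bars their mean. The 2 groups are apart in every panel, from ZNF579 at 437 to 631 down to ZNF618 at 1.21 to 15.9. The rule for naming genes required this of the normalized values. Whether or not they passed, 24 of the 140 ZNF genes lay above without overlap and 25 below, against 1187 and 1126 of all 5250 genes.

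Only ZNF117 passed both in the siRNA comparison and in a drug comparison, that at 24 h, and it rose in both. This was 1 of the 9 ZNF genes of the siRNA comparison (11.1%) and 1 of the 14 of the 24 h comparison (7.14%). Among all genes, 343 passed in both, counted whether or not the directions were the same. This was 54.4% of those of the siRNA comparison and 31.9% of those at 24 h. Counted over all genes tested, the shares were 0.714% of ZNF genes and 6.53% of all genes. The ZNF genes of the siRNA comparison and those of the 6 h comparison had 0 in common, while 275 of all genes (5.24%) passed in both, again in any direction. Over the 3 comparisons 22 ZNF genes passed at least once, and with the times and the difference between times 27 did, leaving 113 that passed in none. At an unadjusted p under 0.05 the numbers of ZNF genes were 10 at 6 h, 23 at 24 h and 24 after siRNA, of 140, and those of all genes 1048, 1471 and 1230, of 5250.

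In each of the 6 comparisons the share of ZNF genes that passed was lower than that of all genes, and within the brighter part it was lower too. In the brighter part, 20.0% of the 60 ZNF genes passed at 24 h against 38.6% of 2625 genes, 8.33% against 26.9% at 6 h and 8.33% against 19.2% after CTNNB1 siRNA. In the dimmer part the shares were alike: 2.5% of the 80 ZNF genes against 2.44% at 24 h, 0.0% against 0.686% at 6 h and 5.0% against 4.84% after siRNA. No test was made of these differences in share. Of the 74 genes on chromosome 19, 1 passed at 6 h (1.35%), 4 at 24 h (5.41%) and 5 after siRNA (6.76%). Of the 66 elsewhere 4 (6.06%), 10 (15.2%) and 4 (6.06%) passed. All these shares lay below those of all genes, and after siRNA they were close to each other. The 7 pseudogenes gave 0 calls in the drug and siRNA comparisons, with ZNF767P called for time, and the 6 non-coding RNAs gave 1, ZNF503-AS2.

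**Figure D5:**
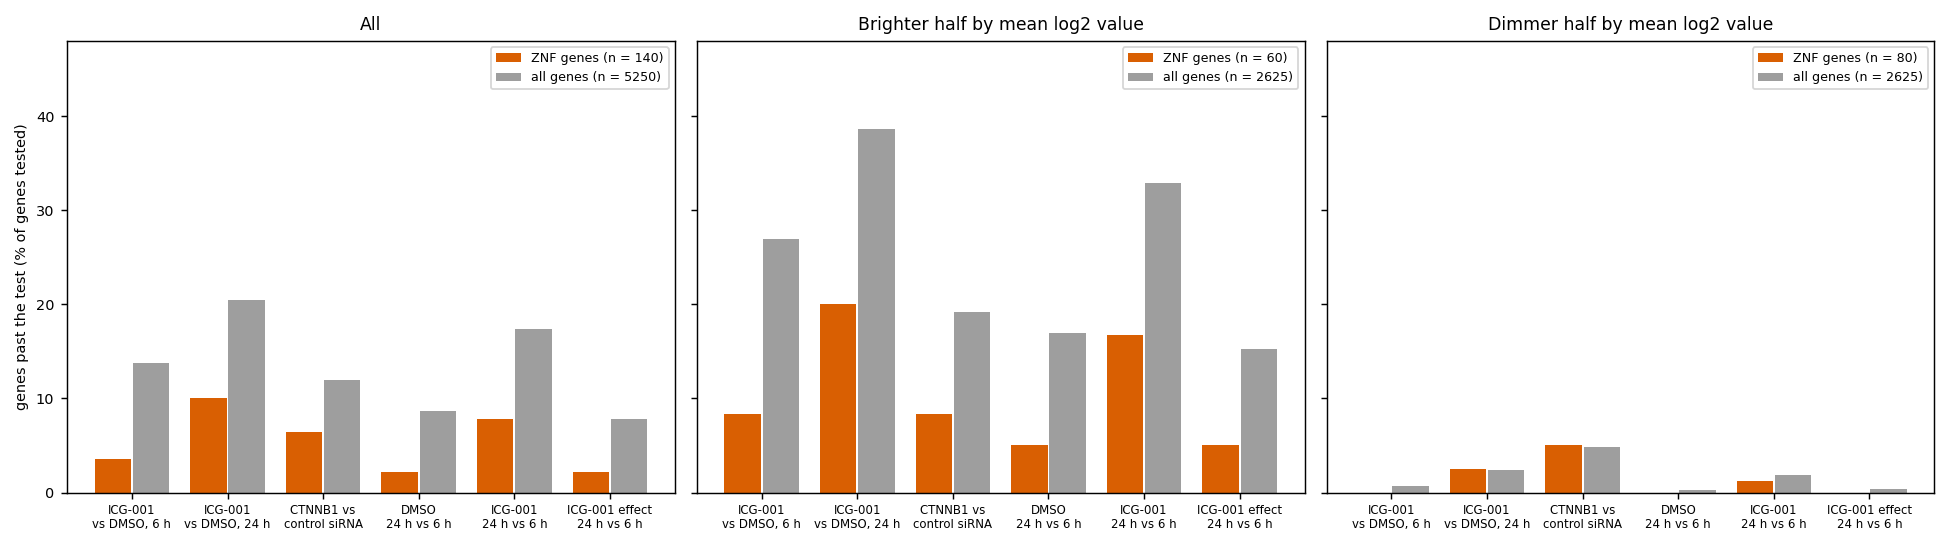
Share of genes that passed the test in each of 6 comparisons (vertical, % of genes tested), for ZNF genes (orange) and all genes (grey), over all genes, the brighter part and the dimmer part by mean log2 value. At 24 h of ICG-001 10.0% of the 140 ZNF genes passed against 20.5% of all genes, and in the brighter part 20.0% against 38.6%.

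Zinc finger genes with other names were few in the table. Together 26 genes of the ZFP, ZSCAN, ZBTB, ZIM and KLF series were measured. Of these 2 passed at 6 h (7.69%), 4 at 24 h (15.4%) and 4 after CTNNB1 siRNA (15.4%), against 13.8%, 20.5% and 12% of all genes. The 9 KLF genes held 2, 3 and 4 of these calls.

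Of a list of 35 KRAB co-repressor and heterochromatin genes, chosen for their role, 13 were measured. The list is mixed, since the H3K9 demethylases KDM4A, KDM4B and KDM4C are counted in it with the co-repressors. At 6 h of ICG-001, 1 rose and 3 fell, and at 24 h 1 rose and 4 fell. These were 30.8% and 38.5% of the 13, against 13.8% and 20.5% of all genes. The median changes were -0.15 and -0.13, and with the deposited scaling 0.04 and -0.01, so the direction of the first depends on the scaling. TRIM28, the co-repressor bound by KRAB domains, was 781 ± 14.2 (SD, n = 3) in DMSO and 614 ± 35.8 in ICG-001 at 6 h, and 811 ± 49.96 and 608 ± 28.3 at 24 h. It fell by 0.61 (SE 0.07, adjusted p = 3.22e-06) at 6 h and by 0.70 (SE 0.07, adjusted p = 3.82e-07) at 24 h, and with the deposited scaling by 0.34 and 0.41, passing there too. CBX5, heterochromatin protein 1 alpha, fell by 0.67 and 0.98, and with the deposited scaling by 0.32 and 0.68. MTA2, a subunit of the NuRD complex, fell by 0.43 and 0.59, and with that scaling by 0.34 and 0.45. Both passed there too. CHD4, a remodeller of that complex, fell by 0.43 at 24 h but did not pass with the deposited scaling (adjusted p = 0.28). The H3K9 demethylase KDM4A rose by 0.48 at 6 h and KDM4C by 0.55 at 24 h. After CTNNB1 siRNA MTA2 fell by 0.67 and the other 12 did not pass. With the deposited scaling the list gave 3 rises and 3 falls at 24 h.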

How the data were processed

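The deposited table held a linear intensity per probe set and array for 9554 probe sets on 16 arrays. How the authors summarised probes and scaled arrays is not given in the sources used here. The smallest coefficient of variation over the 16 arrays was 0.40 after rounding, so genes that varied little are outside all counts. Genes were named from the platform annotation: 6442 probe sets had 1 gene, 252 several and 2860 none. From the deposited intensity, log2(intensity + 16) was computed here. Array medians differed by 0.64 on that scale, over the limit of 0.5, so quantile normalization was applied. Among the drug arrays alone they differed by 0.28 and among the siRNA arrays alone by 0.017, both under the limit. The limit was thus passed through the gap between the experiments, which none of the tested comparisons crosses. The brightest probe set stood for each of 5250 genes. limma 3.58.1 (R 4.3.3) was fitted over 6 groups with an intensity trend, and p-values were adjusted by Benjamini-Hochberg over all genes (threshold 0.05).

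Named were up to 10 rises and 10 falls per drug or siRNA comparison, and 5 for the others, among genes that passed, whose arrays did not overlap and whose higher group had a mean beyond the 25th percentile of all genes. The members and lists were chosen with earlier results of these data known. No grouping by protein domain was made. Lowest correlations between arrays of a group were 0.967 to 0.986, and none were identical. Data were simulated for 5250 genes with a normally distributed spread, and 100 genes were changed at each size, fewer than passed in the real comparisons. In that setting the 6 h comparison recovered 27% of log2 changes of 0.5 and 92% of those of 1.0, and the siRNA comparison 13% and 74%. The number of arrays limits the precision.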

Additional observations from a re-analysis of the deposited data

Results flagged for a closer look

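The effect of ICG-001 differed between the times, by a test of the difference itself in the limma fit, in 3 of the 140 ZNF genes. The difference, 24 h minus 6 h, was 0.80 on the log2 scale in ZNF117 (adjusted p = 0.0122), 0.32 in ZNF277 (adjusted p = 0.0066) and 0.76 in ZNF862 (adjusted p = 0.00512). The value for ZNF117 is from a probe set with the _x_at suffix, and its second probe set did not pass this test. In ZNF862 the 3 treated arrays lay above the 3 vehicle arrays at 24 h and overlapped them at 6 h.

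A signal also appeared in a probe set left out of the comparisons because its annotation names more than 1 gene. This probe set, annotated to RFLNA and to the readthrough locus ZNF664-RFLNA, rose by 1.69 on the log2 scale after CTNNB1 siRNA (adjusted p = 2.56e-08), from a mean intensity of 367 to 1218. With ICG-001 at 24 h it was higher by 0.44 (adjusted p = 0.00372), at 590.2 against 360 in DMSO. The vehicle level had itself fallen by 0.67 from 6 h to 24 h (adjusted p = 0.000183), from 550 to 360. In ICG-001 the probe set read 633 at 6 h, so the treated level did not go up. Which of the named transcripts this probe set reads was not tested. Another such probe set, annotated to TCF12-DT and ZNF280D, rose from 6 h to 24 h in DMSO and in ICG-001. The changes were 0.39 (adjusted p = 0.00575) and 0.74 (adjusted p = 2.01e-06).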

How the results depend on the processing

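Each value was recomputed under 12 kinds of alternative, chosen with earlier results of these data known, and no change of a named ZNF gene reversed in sign. Medians of lists did: with the deposited scaling that of the ZNF genes at 6 h went from -0.02 to 0.01, that of all genes from -0.02 to 0.02 at 6 h and to 0.09 at 24 h, and that of the co-repressor list at 6 h from -0.15 to 0.04, and rises went from 35.7% to 69.2% of ZNF calls at 24 h. The count of ZNF genes after CTNNB1 siRNA moved most: from 9 to 4 with the deposited scaling, 3 with each array centred on its median, 3 with quantile normalization within each experiment, and 1 on the siRNA arrays alone. In ICG-001 between the times the count of 11 became 18 with median centring and 17 on the drug arrays alone. The causes were not tested. With 1 array left out the counts ran from 4 to 5 for ICG-001 at 6 h, 9 to 12 at 24 h, 5 to 10 for siRNA, 3 to 5 for DMSO between the times, 8 to 12 for ICG-001 between the times and 3 to 5 for the difference between the times; where 1 siRNA array was left, it was assumed to vary like the other groups. Same-numbered arrays did not deviate together (correlations of deviations 0.06, -0.04 and 0.05 at 6 h, 0.09, 0.04 and -0.01 at 24 h), so the numbers are taken as names. With the replicate number as a block, 5 ZNF genes passed at 6 h, 14 at 24 h, 8 after siRNA, 4 for DMSO between the times, 11 for ICG-001 between the times and 3 for the difference. Low signal limits the dim genes, of which 34 lay under 16 in every group.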
